A study of Danio rerio with 30 samples.

Results

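The genes described here encode non-collagen glycoproteins of the basement membrane: 6 laminin chains (lama1, lama4, lama5, lamb1a, lamb2 and lamc1), 2 nidogen 1 paralogs (nid1a and nid1b), perlecan (hspg2) and agrin (agrn). They were selected by gene name, in a set proposed when earlier results of these data were known, and make up 10 of the 27731 genes in the table. No measured value decided which gene entered. RNA was sequenced from retinal regions dissected from zebrafish embryos (Danio rerio), either the optic fissure region (OF) or, as control tissue, the dorsal retina (DR). Embryos were taken at 32, 48 or 56 hours post-fertilisation (hpf), which the design places before, during and after closure. The 6 groups comprised 5 libraries each, stated to be biological replicates, and the labels name no treatment, mutation or transgene in any group. The strain, and the number of embryos behind a library, are not given in the sources used here, so the p-values measure the spread between these libraries.

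A basement membrane is a thin sheet of extracellular matrix under epithelia and around vessels and muscle. Laminins, each assembled from 1 alpha, 1 beta and 1 gamma chain, polymerise into a network that their alpha chains anchor to integrins and dystroglycan on the cell surface. Nidogens join that network to type IV collagen, while perlecan and agrin are large proteoglycans with heparan sulfate chains that bind laminin, growth factors and dystroglycan. In the developing eye such a sheet lines the margins of the optic fissure, and its loss where the margins meet is a known step of fusion.

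Library depth ran from 4492966 to 12318209 reads, and 11777 to 25740 genes had a read. Retinal genes (rx1, rx2, six3b and pax6b among 15) had a summed normalised count of 36670 to 55750 in every library, and the level of region genes followed the labels except in 1 pair. In replicate 5 at 48 hpf the library labelled OF had 0 for the ventral gene aldh1a3 and 1387 for the dorsal gene bambia, while the library labelled DR had 565.2 and 433.3. Both replicate 1 libraries at 32 hpf stood apart with 13854 and 11777 genes with a read, and DR replicate 1 at 56 hpf with 25740. Because OF and DR libraries of the same number deviated together, each comparison is given as the unpaired fit to all 30 libraries and as a paired fit to the 13 pairs that leave out replicate 1 at 32 hpf and replicate 5 at 48 hpf. Each paragraph gives normalised counts, and changes as log2 fold changes on the log2(normalised count + 1) scale, which understates changes of genes with few reads. Levels of different genes are not ranked, since values per transcript length were not available here, and read ratios of genes are given only to follow time.

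All 10 genes passed the filter, which asked for 10 normalised counts or more in 5 libraries or more, among 17360 genes tested. lama1, lama5, lamb1a, lamc1, nid1b, hspg2 and agrn were above 10 in all 30 libraries, lama4 in 26, lamb2 in 18 and nid1a in 14. nid1a passed through the later groups, as 1 of the 10 libraries of 32 hpf reached 10. Together the 10 genes took a mean of 0.0162% ± 0.00161 (SD, n = 5) of the reads in OF at 32 hpf and 0.0125% ± 0.00092 in DR. At 48 hpf the shares were 0.0201% ± 0.00301 and 0.0156% ± 0.00296. At 56 hpf the shares were 0.0209% ± 0.00245 in OF and 0.0172% ± 0.00435 in DR. agrn held the most reads of the 10 genes in every group. Its reads, summed over a group, went from 2352 at 32 hpf to 5254 at 56 hpf in OF and from 1812 to 4060 in DR. Those of lama1 went from 1615 to 682 and from 1161 to 576. The summed shares therefore do not show a rise of the set as a whole.

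**Figure D1:**
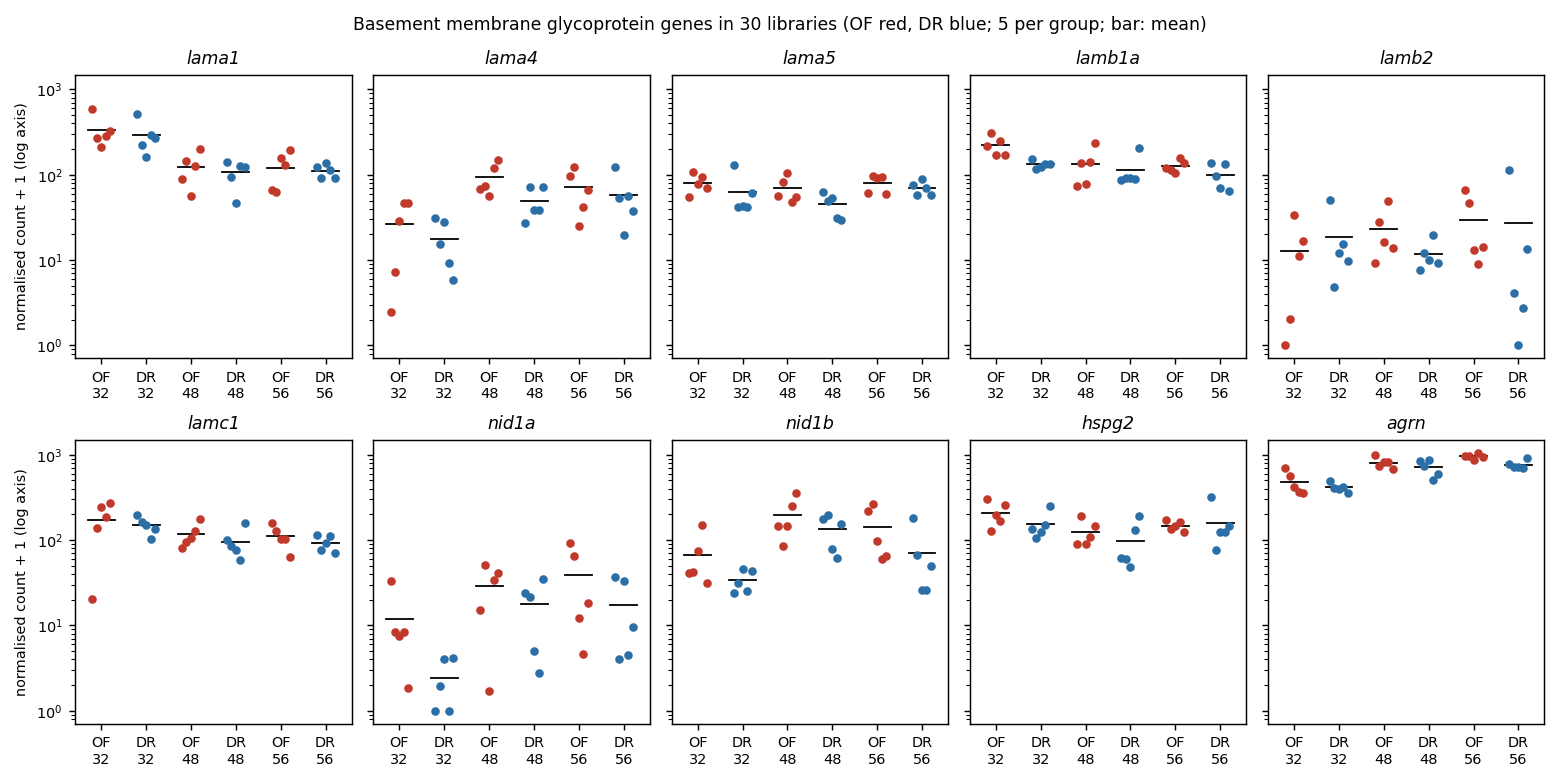
Normalised count plus 1 on a log axis for each of the 10 genes, in OF (red) and DR (blue) at 32, 48 and 56 hpf. Each point is 1 library (5 per group) and the bar is the group mean. The lama1 points drop between 32 and 48 hpf in both regions while those of agrn climb, and the lamb1a points at 32 hpf (170.3 to 309 in OF, 117 to 153 in DR) do not overlap.

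Between 32 and 48 hpf some of the genes rose and others fell. In OF, lama4, nid1b and agrn rose and lama1 and lamb1a fell, which is 5 of the 10 genes called at an adjusted p under 0.05 in limma-trend with Benjamini-Hochberg adjustment, beside 35.2% of all genes tested (25.6% higher and 9.61% lower). In DR, nid1a, nid1b and agrn rose and lama1 fell, 4 of 10 beside 28.5% (22.1% higher and 6.39% lower). These shares lie near the background, so the counts say nothing particular about the set. The paired fit called 4 of 10 in OF (lama1, lamb1a and lamc1 lower, agrn higher) beside 38.3% of genes (26.9% higher and 11.4% lower), and 6 of 10 in DR (lama4, nid1b and agrn higher, lama1, lamc1 and hspg2 lower) beside 29.8% (21.6% higher and 8.21% lower). The calls of lama1 and agrn were shared by both regions and both fits, and lama5 and lamb2 were not called in any comparison.

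The median gene moved by 0.38 in OF and 0.35 in DR on the log2 scale in this interval, and the share of calls that were higher was 72.7% and 77.5%. With quantile scaling the medians were -0.16 and -0.17 and the higher shares 47.2% and 54.2%. The median of the 10 genes was 0.30 in OF and -0.31 in DR. Relative to the median gene lama1 changed by -1.85 in OF and -1.79 in DR, lama4 by 2.05 and 1.30, nid1b by 1.24 and 1.55, and agrn by 0.41 in each region. lamb1a changed by -1.22 in OF and -0.67 in DR, and hspg2 by -1.13 in both, on the same relative scale.

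lama1 (ENSDARG00000102277) encodes the laminin alpha 1 chain, which zebrafish embryos need for normal eye and brain development. In OF its normalised counts were 597, 267, 209, 285 and 325 at 32 hpf and 88.9, 145, 55.5, 127 and 199.6 at 48 hpf. In DR they were 509.7, 222, 159, 295 and 269 at 32 hpf and 140.3, 94.5, 46.3, 125 and 122 at 48 hpf. In both regions every library of 48 hpf lay below every library of 32 hpf, a pattern that 4.79% of genes showed in OF and 4.13% in DR. lama1 fell by 1.47 (SE 0.38, 95% CI -2.24 to -0.70) in OF, with a limma adjusted p of 0.0028, and by 1.44 (SE 0.38, 95% CI -2.21 to -0.67) in DR, with a limma adjusted p of 0.0040. The paired fit gave -1.45 (adjusted p = 0.0021) and -1.29 (adjusted p = 0.0073). Leaving out any 1 library gave -1.68 to -1.22 in OF and -1.63 to -1.17 in DR. At 56 hpf the means, 120.5 ± 57.2 (SD, n = 5) in OF and 110.3 ± 19.7 in DR, were within the spread of those at 48 hpf.

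lama4 (ENSDARG00000020785) encodes the laminin alpha 4 chain, known from the basement membrane of blood vessels. In OF its counts were 1.48, 6.28, 27.6, 45.2 and 45.8 at 32 hpf and 67.4, 72.7, 56.2, 119 and 147 at 48 hpf, without overlap, which held in that direction for 16.7% of genes. It rose by 2.43 (SE 0.67, 95% CI 1.06 to 3.80) with a limma adjusted p of 0.0053. The lowest value came from replicate 1, which held 1 read. Without that library the change was 1.76 (limma adjusted p = 0.027), and in the paired fit it was 1.57 (SE 0.64, adjusted p = 0.054), which missed the threshold, as did the value with quantile scaling (1.23, adjusted p = 0.094). In DR the counts were 29.985, 14.3, 26.6, 8.35 and 4.81 at 32 hpf and 26.3, 70.1, 38.2, 38.1 and 70.5 at 48 hpf, and the groups overlapped. The DR change of 1.65 (SE 0.67, 95% CI 0.28 to 3.02, limma adjusted p = 0.066) missed the threshold, while the paired fit (1.76, adjusted p = 0.039) and DESeq2 on the recovered reads (1.60, adjusted p = 0.031) called it. The difference between the regions' changes was 0.79 (SE 0.95, 95% CI -1.15 to 2.73, limma adjusted p = 1), so a difference in the rise was not shown.

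lama5 (ENSDARG00000058543) encodes the laminin alpha 5 chain, widespread in epithelial basement membranes. Its group means ran from 44.3 ± 14.3 (SD, n = 5) in DR at 48 hpf to 79.8 ± 19.0 in OF at 56 hpf, and the ranges of the 6 groups overlapped. Its change from 32 to 48 hpf was -0.24 (95% CI -0.93 to 0.46, limma adjusted p = 0.63) in OF and -0.39 (95% CI -1.09 to 0.30, limma adjusted p = 0.41) in DR. With quantile scaling it passed the threshold as lower in both, at -0.92 (adjusted p = 0.040) and -1.03 (adjusted p = 0.032).

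lamb1a (ENSDARG00000101209) and lamc1 (ENSDARG00000036279) encode the beta 1 and gamma 1 chains, the partners of the alpha chains in the most widespread laminins. In OF the lamb1a counts were 216, 309, 170.3, 246 and 172 at 32 hpf and 72.5, 137, 77.3, 139 and 237 at 48 hpf. Replicate 5 gave the 237, the pair that goes against its labels, and that value alone overlapped the earlier group. lamb1a fell by 0.84 (SE 0.30, 95% CI -1.46 to -0.22, limma adjusted p = 0.030) in OF, and by 1.09 in the paired fit (adjusted p = 0.0034). The call was lost without OF replicate 2 (adjusted p = 0.086) or 4 (0.059) of 32 hpf and without replicate 1 (0.107) or 3 (0.102) of 48 hpf, and in a fit to only the groups compared (0.076). In DR it changed by -0.32 (95% CI -0.94 to 0.30, limma adjusted p = 0.45), and the interaction was -0.52 (95% CI -1.40 to 0.35, limma adjusted p = 1).

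For lamc1 the OF counts at 32 hpf were 19.2, 137, 245, 187 and 273, and at 48 hpf 80.7, 93.2, 105, 127 and 178. The 19.2 of replicate 1 rested on 13 reads in one of the libraries that stood apart. With it the change was -0.18 (SE 0.46, limma adjusted p = 0.79), and without it -0.85 (limma adjusted p = 0.037). The paired fit, which leaves out that pair, gave -1.02 (SE 0.30, adjusted p = 0.0078) in OF and -0.78 (SE 0.30, adjusted p = 0.047) in DR, where the unpaired change was -0.69 (limma adjusted p = 0.27). The sign of the unpaired OF value turned, to 0.05 and 0.09, without replicate 3 or 5 of 32 hpf.

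lamb2 (ENSDARG00000002084), which encodes the beta 2 chain found in mammals at neuromuscular junctions, in the kidney filter and in the retina, was low. Its counts reached 10 in 18 of 30 libraries, and group means ran from 10.7 ± 4.72 (SD, n = 5) to 28.7 ± 25.1. The OF change from 32 to 48 hpf was 1.56 (SE 0.98, 95% CI -0.45 to 3.57, limma adjusted p = 0.23) and became -0.07 with quantile scaling, and the DR change was -0.30 (95% CI -2.31 to 1.71). Intervals of this width do not allow a direction to be read for lamb2.

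nid1b (ENSDARG00000103129) encodes a nidogen 1 paralog. Its OF counts were 40.0, 41.8, 73.0, 148 and 30.8 at 32 hpf and 146, 84.8, 147, 249 and 355 at 48 hpf, and only the 148 of replicate 4 overlapped the later group. In DR the counts were 23.3, 30.4, 45.1, 24.0 and 42.5 at 32 hpf and 176, 199, 78.5, 61.2 and 155 at 48 hpf, with no overlap, as for 14.4% of genes in that direction. nid1b rose by 1.62 in OF (SE 0.53, 95% CI 0.54 to 2.70, limma adjusted p = 0.018) and by 1.90 in DR (SE 0.53, 95% CI 0.82 to 2.98, limma adjusted p = 0.0070). In the paired fit the DR rise was 1.70 (adjusted p = 0.033), but the OF value of 1.24 missed the threshold (adjusted p = 0.106). The OF call was also lost without replicate 5 of 32 hpf (adjusted p = 0.052) or of 48 hpf (0.056), and quantile scaling ended the calls in OF (1.01, adjusted p = 0.13) and DR (1.17, adjusted p = 0.096). At 56 hpf the DR mean was 69.0 ± 64.6 (SD, n = 5), a difference of -1.21 from 48 hpf with an unadjusted p of 0.029 and a limma adjusted p of 1.

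The other paralog, nid1a (ENSDARG00000068710), was at 32.6, 7.32, 6.49, 7.38 and 0.83 in OF at 32 hpf and at 14.3, 50.3, 0.70, 33.4 and 40.7 at 48 hpf, and the groups overlapped. In DR it was 0, 0.95, 3.07, 0 and 3.21 at 32 hpf, on 8 reads in all, and 23.0, 20.5, 4.02, 1.77 and 33.7 at 48 hpf. The DR value of 2.57 (SE 0.98, 95% CI 0.58 to 4.57) passed narrowly with a limma adjusted p of 0.048. The call was lost in 7 of 11 other settings: the paired fit (1.94, adjusted p = 0.19) and the same pairs without a block (adjusted p = 0.18), the block with all pairs (2.57, adjusted p = 0.064), a pseudocount of 5 (1.48, adjusted p = 0.099), no filter (2.57, adjusted p = 0.080), TMM scaling (2.52, adjusted p = 0.051) and quantile scaling (0.67, adjusted p = 0.62). It was also lost when any 1 of 14 of the 30 libraries was left out, with adjusted p up to 0.12. In OF the change was 1.18 (95% CI -0.82 to 3.18, limma adjusted p = 0.37), or -0.04 with quantile scaling. Reads shared by the 2 paralogs could be split between them in ways the table does not show.

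agrn (ENSDARG00000079388) encodes agrin, which organises synapses at the neuromuscular junction and binds laminin and dystroglycan. In OF its counts were 702, 562, 418, 364 and 358 at 32 hpf and 983, 740.0, 824, 823 and 678 at 48 hpf. In DR they were 486, 409.7, 398, 414 and 359.8 at 32 hpf and 856, 737, 878, 505 and 587 at 48 hpf, with no overlap, as for 14.4% of genes in that direction. In OF only the 702 of replicate 1 overlapped. agrn rose by 0.79 in OF (SE 0.18, 95% CI 0.43 to 1.15, limma adjusted p = 7.3e-04) and by 0.76 in DR (SE 0.18, 95% CI 0.40 to 1.12, limma adjusted p = 0.0014). The paired values were 1.00 (adjusted p = 2.8e-05) and 0.88 (adjusted p = 2.0e-04), and no single library or alternative setting removed either call. At 56 hpf the means were 958 ± 68.1 (SD, n = 5) in OF and 768 ± 84.4 in DR.

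hspg2 (ENSDARG00000076564) encodes perlecan. Its OF counts were 304, 127, 197, 167 and 254 at 32 hpf and 88.9, 191, 90.0, 107 and 144 at 48 hpf, and the DR counts were 133, 105.5, 123, 151 and 252 and then 61.4, 58.3, 47.3, 132 and 190.1. Both pairs of groups overlapped. The change was -0.75 in OF (95% CI -1.50 to -0.0030, limma adjusted p = 0.11) and -0.78 in DR (95% CI -1.53 to -0.04, limma adjusted p = 0.11). In DR the paired fit called it at -1.11 (SE 0.37, adjusted p = 0.024), and the unpaired fit did so without the library labelled DR replicate 5 of 48 hpf (-1.07, limma adjusted p = 0.026). The median within-library ratio of agrn to hspg2 reads in OF was 2.18 (1.41 to 4.44), 7.68 (3.87 to 11.06) and 6.60 (5.67 to 7.43) at 32, 48 and 56 hpf. In DR it was 3.24 (1.43 to 3.88), 12.6 (3.09 to 18.57) and 5.81 (2.45 to 9.57). The ratio of lama1 to lama4 reads had medians of 7.59 (6.31 to 403) and 17 (5.96 to 56) at 32 hpf and 1.32 (0.99 to 2) and 1.73 (1.21 to 5.33) at 48 hpf in OF and DR. At 56 hpf its medians were 2.91 (0.5 to 6.39) and 2.05 (0.99 to 7.33). Both ratios were chosen after the values were seen and are descriptions. They are not corrected for transcript length, so only their course over time can be read, not which gene had more transcripts.

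**Figure D2:**
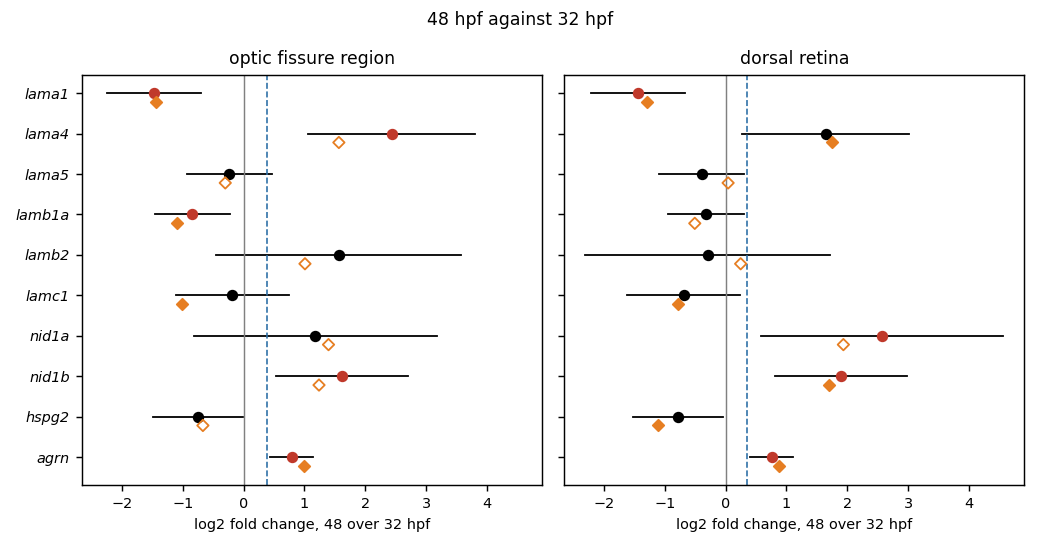
log2 fold change of each gene from 32 to 48 hpf, in OF (left) and DR (right). Circles with 95% confidence intervals are the unpaired limma fit (red where called), diamonds the paired fit (filled where called), and the dashed line is the median of all genes (0.38 and 0.35). lama1 lies below 0 (-1.47 and -1.44) and agrn above it (0.79 and 0.76) in both panels.

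From 48 to 56 hpf none of the 10 genes was called in OF (beside 0.0173% of all genes) or in DR (beside 0.0115%) in limma. The counts were also 0 in the paired fit (beside 0.0288% and 0.0115%), in edgeR (0.0288% and 0.0173%) and in DESeq2 (0.0576% and 0.023%). At an unadjusted p under 0.05 there were 0 genes in OF, beside 3.83% of all genes, and 1, nid1b, in DR, beside 3.21%. The values in OF ran from -0.58 to 0.34 on the log2 scale, and those in DR from -1.21 to 0.72. In the paired fit hspg2 was at 1.01 in DR (SE 0.35, adjusted p = 0.77) and every pair of groups overlapped, where 1.15% of genes in OF and 0.858% in DR did not. These comparisons share the 48 hpf libraries with those of 32 to 48 hpf.

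No gene of the set passed the test for a difference between the fissure region and the dorsal retina, although most values lay above 0. At 32, 48 and 56 hpf limma called 0 of 10, beside 1.14%, 0.00576% and 0.253% of all genes, and on the recovered reads edgeR (beside 0.904%, 0.0173% and 0.0461%) and DESeq2 (beside 2.26%, 0.144% and 0.311%) also called 0. The paired fit called 0 as well, beside 3.25%, 4.5% and 4.72%. Limma, edgeR and DESeq2 kept the replicate 5 pair of 48 hpf, which goes against its labels. At 48 hpf limma also called 0 of 10 ventral and 0 of 12 dorsal eye genes, where the paired fit called 10 and 7. The counts of 0 from fits that keep that pair therefore cannot show that a regional difference was absent at 48 hpf. At an unadjusted p under 0.05 there were 1, 0 and 1 genes (lamb1a at 32 hpf and nid1b at 56 hpf) beside 8.74%, 3.96% and 5.81% of all genes. In the paired fit there were 3, 1 and 3 of the 10 beside 12%, 20.8% and 18.8%. The OF mean of the log values was above that of DR for 8, 10 and 10 of the 10 genes, beside 56.1%, 61.2% and 58.6% of all genes, and the medians were 0.34, 0.50 and 0.33 beside 0.06, 0.10 and 0.08. The paired fit had all 10 above 0 at each time, beside 53.2%, 60.9% and 58.6% of all genes. At 56 hpf no pair was left out, so its values are those of the unpaired fit and add nothing. The values at 56 hpf of lama1 and hspg2, near 0, turned sign with quantile scaling. In bulk libraries fewer cells of a type and less RNA per cell cannot be told apart.

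**Figure D3:**
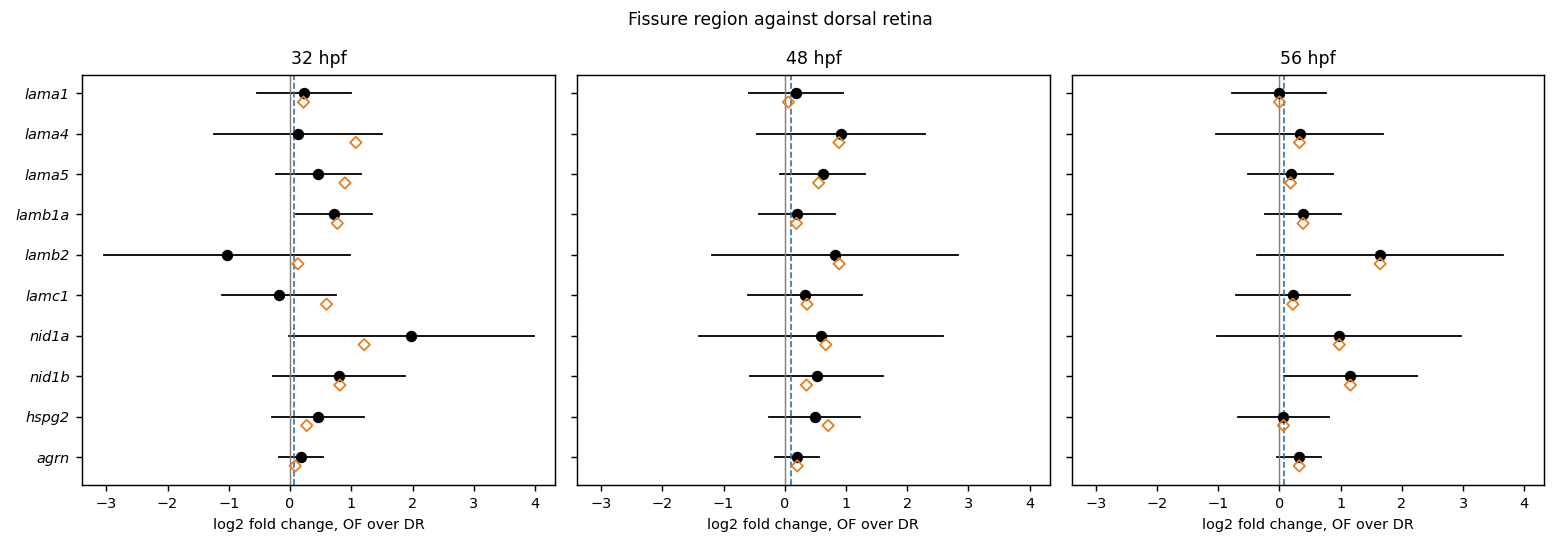
log2 fold change of each gene, OF over DR, at 32, 48 and 56 hpf. Circles with 95% confidence intervals are the unpaired fit, diamonds the paired fit, and the dashed line is the median of all genes (0.06, 0.10 and 0.08). Most points lie to the right of 0, no gene was called, and the intervals of lamb2 and nid1a are the widest of the 10.

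lamb1a at 32 hpf was the single case, over 10 genes and 3 times, in which the OF and DR groups did not overlap. The OF counts given above, 170.3 to 309, lay entirely above the DR counts of 153, 117, 123, 134 and 135, a separation that 0.881% of genes showed in that direction. In either direction 1.17%, 0.887% and 2.95% of genes had groups without overlap at 32, 48 and 56 hpf. The log2 fold change was 0.72 (SE 0.30, 95% CI 0.10 to 1.33), OF was higher in 5 of 5 pairs, and the limma adjusted p was 0.43 (0.12 in the paired fit). At 48 and 56 hpf it was 0.19 (95% CI -0.42 to 0.81) and 0.39 (95% CI -0.23 to 1.01), and the change of the difference between 32 and 48 hpf was not called.

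lama5 was at 53.3, 107, 76.2, 93.2 and 69.1 in OF and at 129.9, 40.9, 42.0, 40.7 and 60.1 in DR at 32 hpf. The highest DR value, that of replicate 1, was the only one above 60.1. The unpaired difference was 0.46 (95% CI -0.23 to 1.16, limma adjusted p = 0.81), and without that pair the paired one was 0.90 (SE 0.29, adjusted p = 0.12). At 48 hpf lama5 was at 0.62 (95% CI -0.07 to 1.32, limma adjusted p = 1), with OF higher in 4 of 5 pairs. The lamc1 value at 32 hpf was -0.18 unpaired and 0.59 paired (adjusted p = 0.35), and hspg2 at 48 hpf was 0.49 unpaired and 0.71 paired (adjusted p = 0.17).

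At 56 hpf nid1b was at 220.1, 263, 96.2, 59.9 and 64.6 in OF and 180.4, 65.5, 24.7, 25.2 and 49.1 in DR. The groups overlapped through DR replicate 1, yet OF was higher in 5 of 5 pairs. The difference was 1.16 (SE 0.53, 95% CI 0.08 to 2.24, limma adjusted p = 0.79, paired adjusted p = 0.14), and without DR replicate 1 it was 1.60 (limma adjusted p = 0.27). lamb2 was at 64.7, 45.6, 12.1, 8.04 and 13.3 in OF and 113.8, 3.07, 0, 1.74 and 12.5 in DR. Its difference was 1.65 (SE 0.98, limma adjusted p = 1), or 2.65 without DR replicate 1 (limma adjusted p = 0.32). agrn at 56 hpf was higher in OF in 5 of 5 pairs, at 0.32 (SE 0.18, 95% CI -0.03 to 0.68, limma adjusted p = 0.95, paired adjusted p = 0.17). OF was also higher in 5 of 5 pairs for hspg2 at 32 hpf and for lama4 and lamb2 at 48 hpf. At 48 hpf these include the replicate 5 pair that goes against its labels. The share of all genes with 5 of 5 pairs is not given here, so such counts are descriptions.

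The regional difference did not change detectably with time for any of the 10 genes. The interaction tests of 48 against 32 hpf, 56 against 48 hpf and 56 against 32 hpf called 0 of 10 each (beside 0.00576%, 0 and 0.00576% of all genes), and none had an unadjusted p under 0.05, beside 3.8%, 0.518% and 4.1% of all genes. The paired fit (beside 0.403%, 0 and 0.403%), edgeR (0.0288%, 0 and 0.0173%) and DESeq2 (0.265%, 0 and 0.0922%) also called 0. The unpaired tests that include 48 hpf keep the replicate 5 pair that goes against its labels, so they cannot show that the difference stayed the same. The intervals are wide: that of agrn for 48 against 32 hpf was -0.47 to 0.54 and that of lama4 -1.15 to 2.73.

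Levels within groups were described by Pearson r of the log2 values after group means were removed, over 30 libraries that share dissection, depth and pairs. The 45 gene pairs had a median r of 0.05, from -0.53 (lamc1 with agrn) to 0.73, and the r of that lowest pair became -0.09 without the 5 libraries named next. Values of 0.5 or more were found for 3 pairs: lama4 with lamc1 (0.73), lama4 with lamb2 (0.71) and nid1a with nid1b (0.51). Without the 2 doubted pairs and DR replicate 1 of 56 hpf these were 0.43, 0.59 and 0.49 over 25 libraries. With group means kept, the genes most like lama1 were ddx21 (r = 0.90), dnmt3bb.1 (0.90) and ddx27 (0.89), an RNA helicase, a DNA methyltransferase and a further helicase, among 10998 candidates. Those most like agrn were tox2 (0.94), auts2a (0.93) and syn1 (0.93), the last a synaptic vesicle protein. nid1b was most like lrrc17 (0.82), cdh11 (0.80) and krt8 (0.80), and lama4 like gmds (0.87), snai2 (0.85) and hspa5 (0.84). For the other genes the highest r was lower. It was 0.79 for lamc1 (taf6l), 0.74 for nid1a (desma), 0.73 for lamb2 (gng12a), 0.71 for lamb1a (foxp4), 0.70 for hspg2 (eif4ba) and 0.64 for lama5 (ubox5).

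**Figure D4:**
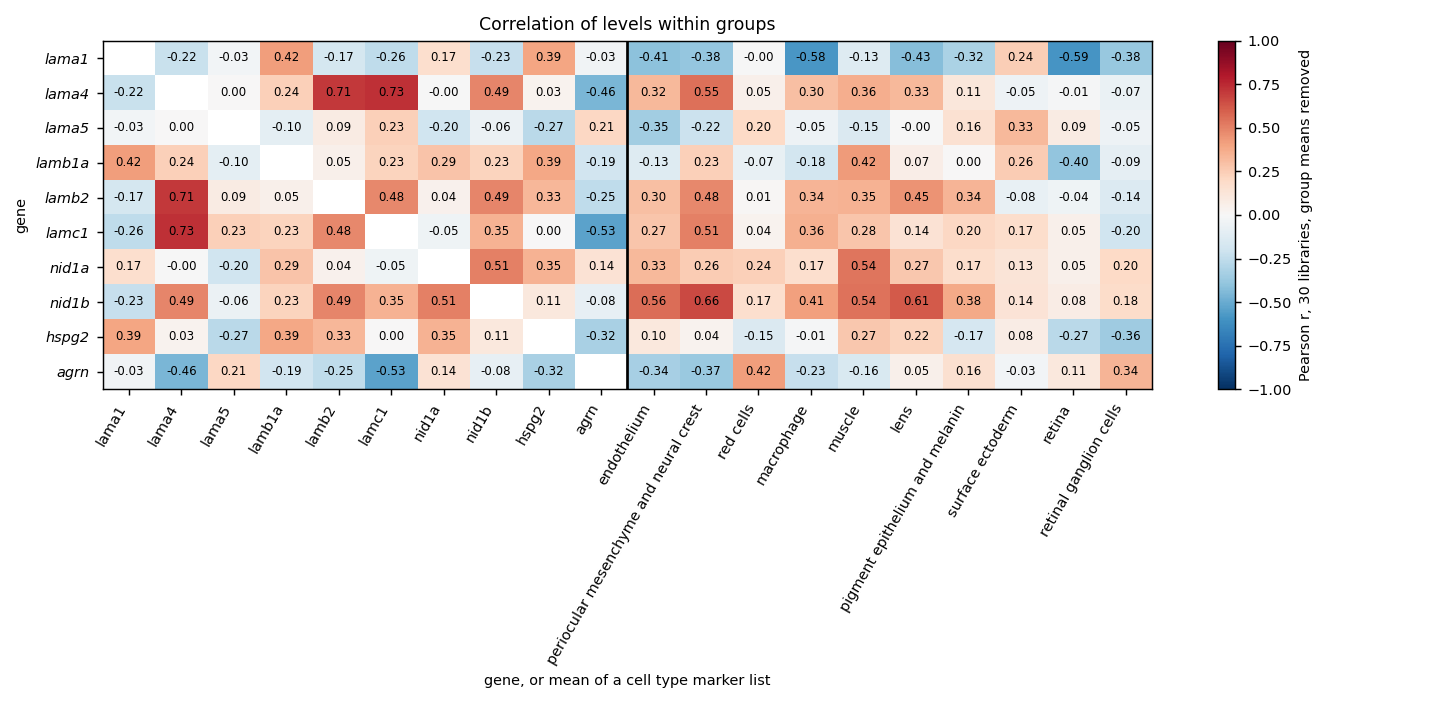
Pearson r over 30 libraries, group means removed, between the 10 genes (left block) and with the mean log2 level of 10 cell type marker lists (right block). Red is positive and blue negative, and r is printed in each cell. The pairs lama4 with lamc1 and lama4 with lamb2, and nid1b with periocular mesenchyme (0.66) and lens (0.61), stand out.

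Marker lists of other cell types, and of the ganglion cells of the retina, were counted beside these results as descriptions. Between regions at 32 hpf 1.14% of all genes tested were called in either direction (3.25% in the paired fit). From 32 to 48 hpf 25.6% of all genes rose and 9.61% fell in OF, and 22.1% rose and 6.39% fell in DR. Some list counts lie near or under these shares, such as macrophage genes in OF and muscle genes in DR, and others above them. The endothelial list had 5 of 26 tested genes higher in OF at 32 hpf (8 in the paired fit), and its summed count was 1726 to 3159 in OF and 646 to 1474 in DR. From 32 to 48 hpf 15 of 26 rose in DR, against 2 higher and 1 lower in OF. The periocular mesenchyme list, which includes tfap2a and tfap2b, had 7 of 19 genes higher at 48 hpf in OF and 11 of 19 in DR. Its sums, without tfap2a and tfap2b (left out after their values were seen, since amacrine cells express them), in OF were 199.9 to 1338 at 32 hpf and 788 to 3492 at 48 hpf, and in DR 139.9 to 669 and 1108 to 1872. With both genes kept the median sum in OF at 48 hpf was 6881, against 1840 without them. Across libraries nid1b had r = 0.82 with the periocular mesenchyme list, 0.66 with group means removed and 0.62 without the 5 libraries, and lama4 had 0.74, 0.55 and 0.47. The ganglion cell list rose in 14 of 15 genes in each region. It had r = 0.86 with agrn and -0.78 with lama1, which became 0.34 and -0.38 with group means removed. The red cell list had 3 of 18 genes higher in OF at 32 hpf (9 in the paired fit), with sums of 4163 to 63090 in OF and 635.4 to 26130 in DR, and 9 of 18 rose in DR from 32 to 48 hpf. In the same interval 4 of 13 macrophage genes rose in OF and 7 of 13 in DR, and 8 of 15 pigment epithelium genes rose and 1 fell in OF while 4 rose in DR. The lens list had 3 of 8 tested genes higher at 48 hpf in each region, and its sums were 81.6 to 381 in OF and 72.1 to 378 in DR at 32 hpf, and 1355 to 3004 and 1047 to 1981 at 48 hpf. Muscle genes rose in 6 of 14 in OF and 2 of 14 in DR, and muscle sums reached 16640 in 1 OF library of 56 hpf. The part of these cells in the values of the 10 genes was not tested.

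Of 9 other laminin and nidogen genes 4 passed the filter (lamb1b, lamb2l, lamc3 and nid2a). lamb2l, a second beta 2 type chain, fell from 288 ± 151 (SD, n = 5) to 57.3 ± 24.2 in OF (log2 -2.27, limma adjusted p = 1.6e-05) and from 201 ± 39.1 to 81.6 ± 30.3 in DR (-1.34, limma adjusted p = 0.0060). At 56 hpf it was lower in OF than in DR in the paired fit (56.1 against 109, -0.93, adjusted p = 0.029) but not in the unpaired one (adjusted p = 0.62). nid2a was at 124 ± 53.8 in OF and 29.8 ± 11.5 in DR at 32 hpf, which passed only in the paired fit (2.09, adjusted p = 0.037, unpaired 2.02, adjusted p = 0.12).

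Among 18 tested matrix glycoproteins of other families, 3 were higher in OF at 32 hpf: smoc2 (319 ± 115 against 1.65 ± 2.37), smoc1 (105.5 ± 70.9 against 0 in every DR library) and tnc (87.9 ± 14.9 against 29.9 ± 42.0). In 1 OF library smoc1 was also at 0. Their limma adjusted p were 4.3e-05, 0.019 and 0.0077, where 1.14% of all genes tested were called in either direction. At 48 hpf smoc2 and smoc1 passed only in the paired fit (adjusted p = 2.2e-05 and 2.8e-04, beside 4.5% of genes). At 56 hpf both passed in the paired fit (2.3e-04 and 7.7e-05, beside 4.72%), and smoc2 also in limma (adjusted p = 0.033, beside 0.253%). smoc1 and smoc2 encode calcium-binding matrix proteins and tnc tenascin C. From 32 to 48 hpf 4 rose and 1 fell in OF, and 5 rose in DR. These counts lie near the shares of all genes, 25.6% higher and 9.61% lower in OF and 22.1% and 6.39% in DR. tnc went from 87.9 to 889 in OF (limma adjusted p = 1.0e-05) and from 29.9 to 707 in DR (limma adjusted p = 3.6e-09). frem2a rose in both regions, from 3.27 to 54.4 in OF (limma adjusted p = 2.6e-05) and from 0 to 34.2 in DR (limma adjusted p = 1.6e-05).

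A list drawn up for laminin and agrin receptors also held sarcoglycan genes and itga9, and whether each product binds laminin or agrin was not examined. Of its 16 tested genes 0 differed between regions at any time in limma. In the paired fit 2 did at 32 hpf (bcam, adjusted p = 0.043, and itga9, adjusted p = 0.048), beside 3.25% of all genes. Between 32 and 48 hpf dag1, which encodes dystroglycan, fell in both regions: from 1890.0 ± 342 (SD, n = 5) to 997.5 ± 139.9 in OF (-0.92, limma adjusted p = 0.0010) and from 1605 ± 442.5 to 974.5 ± 194 in DR (-0.69, limma adjusted p = 0.013). The sarcoglycan gene sgce rose in both, by 1.66 (limma adjusted p = 2.0e-05) and 1.01 (limma adjusted p = 0.0055), as did sgcb and the integrin gene itga9. The lists that follow are read against the 25.6% of all genes that rose and 9.61% that fell in OF, and 22.1% and 6.39% in DR, and their counts are descriptions. Of the 16 genes of the receptor list 3 rose and 1 fell in OF, and 5 rose and 1 fell in DR. Of 18 heparan sulfate synthesis genes 4 rose and 1 fell in OF and 3 rose and 2 fell in DR. Among them ext1c, of the polymerase that extends the chains, went from 2.09 to 104 and from 0.57 to 55.6 (limma adjusted p = 1.2e-08 and 1.6e-08), and the sulfotransferase gene hs2st1a fell from 273 to 173 and from 285 to 176 (limma adjusted p = 0.017 in each). Of 26 tested matrix proteases and inhibitors 10 rose and 1 fell in OF and 7 rose in DR. adamts18 was higher in OF than in DR at 56 hpf in the paired fit (377 against 182, adjusted p = 0.0035), beside 4.72% of all genes. The unpaired fit called 0 of the 26 in that comparison. None of the 14 dystroglycan glycosylation genes differed between regions in limma, and 1 was higher in OF at 48 hpf in the paired fit, beside 4.5% of all genes. From 32 to 48 hpf 2 rose in OF and 0 in DR in limma, and 1 and 3 in the paired fit.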

How the data were processed

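Total RNA from dissected retinal regions was extracted with a kit for fixed tissue before low-input library construction, as the labels' protocols state. The deposited table holds a signal per gene, namely read counts that the authors had normalised by library size factors. GRCz10, HTSeq, DESeq2, STAR 2.4.0, Picard and Trim Galore are named without a role in the submitters' processing notes, and the strand setting and annotation release are not given in the sources used here. In 29 libraries low values were whole multiples of 1 step, and 100% of values came out as whole reads within 0.01 reads. In DR replicate 3 at 48 hpf the step of 1.0058 lay near 1, so reads and normalised counts differed little there. In that library agrn was at 878.06, for 873 recovered reads.

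Genes with at least 10 in at least 5 libraries (17360) were tested with limma-trend (limma 3.58.1, R 4.3.3) on log2(normalised count + 1), with 6 group means over 30 libraries and Benjamini-Hochberg adjustment over all genes in each of 10 comparisons. All p-values are two-sided. The paired fit took the pair as a block for regional contrasts and interactions, and as a random effect for changes over time. OF and DR libraries of the same number and time had correlated deviations (15 pairs, r from 0.228 to 0.52, median 0.38, against a median of -0.0958 for different numbers), and 30 of 30 libraries correlated best with their own pair, so the numbers were taken to pair the samples. Alternatives were pseudocounts of 0.5 and 5, no filter, a mean of at least 50, TMM and quantile scaling, the block with all pairs, the 13 pairs without the block, only the groups compared, each library left out, and edgeR 4.0.16 and DESeq2 1.42.0 on the recovered reads. edgeR called 35.1% of genes from 32 to 48 hpf in OF and 27.7% in DR.

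The 10 genes were taken by name, and 18 lists of related genes were drawn up, with earlier results of these data known. Of 343 list genes 19 were not found. All 10 genes are named in every comparison. Genes outside the set are named where a list had them called in either fit, at most 4 per list and comparison by smallest adjusted p. For each gene the 3 genes with the highest r were taken among those with a mean of at least 50. All 3 are named for lama1, lama4, nid1b and agrn, and only the first for the others. Gene symbols are those of the table. Coordinates, sequences, protein motifs and levels per coding length were not analysed here.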

Additional observations from a re-analysis of the deposited data

Results flagged for a closer look

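For each gene and group the highest or lowest library was compared with the other 4 by Dixon's ratio (critical value 0.71). Of 60 groups 7 were over it, and 6 of the 7 lay in a replicate 1 library. The ratio was taken on normalised counts and not on log values, and each flagged value was the highest of its group. Because that critical value assumes normal values and the groups share libraries, no excess over chance is read from the 7. In DR replicate 1 at 32 hpf, the shallowest library, lama5 was at 129.9 against 40.7 to 60.1 in the others, and lamb2 at 49.97 against 3.80 to 14.6. In OF replicate 1 at 32 hpf nid1a was at 32.57 against 0.83 to 7.38. In DR replicate 1 at 56 hpf lamb2 was at 113.8 against 0 to 12.5, nid1b at 180.4 against 24.7 to 65.5, and hspg2 at 320.5 against 75.7 to 145. The library labelled DR replicate 5 at 48 hpf had lamb1a at 204.4 against 85.5 to 91.5. That pair goes against its labels for region genes, and its partner labelled OF had the highest lamb1a of its group, 237. The cause of these values was not tested.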

How the results depend on the processing

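The number of the 10 genes called kept within 1.5 times the main count under all 12 alternative settings and every library left out: 4 to 6 in OF from 32 to 48 hpf with 1 library left out and 4 to 5 otherwise, 3 to 5 and 3 to 6 in DR, and 0 in the other 8 comparisons. Over the 13 changes of single genes called in either fit, 494 of 545 values kept direction and side of the threshold, 34 lost the call, 15 gained it and 2 reversed. The reversed ones were lamc1 in OF from 32 to 48 hpf, at 0.05 and 0.088 without OF replicate 3 or 5 of 32 hpf, against -0.18 (range -0.85 to 0.088 with 1 library left out). Where the library left out lay outside the groups compared, the log2 fold change could not move, only its p-value. The direction of those values was fixed in advance, so the 494 is not a measure of robustness. With the replicate block on all pairs, only nid1a in DR lost its call among these 13 (adjusted p = 0.064). Without the doubted pairs and with no block, nid1b in OF (1.24, adjusted p = 0.095) and nid1a in DR (1.94) missed the threshold, and lamc1 in both regions, lama4 in DR and hspg2 in DR passed it. The replicate block on those pairs gave the same calls except that it also lost lama4 in OF (1.57, adjusted p = 0.054 with the block and 0.045 without). nid1a in DR lost its call both with the block on all pairs and without the doubted pairs and with no block. For nid1b in OF, lamc1 in both regions, and lama4 and hspg2 in DR, leaving out those pairs moved the call and the block on all pairs did not. Other settings moved some of these calls too. Quantile scaling did so for nid1b in OF (limma adjusted p = 0.13) and hspg2 in DR (0.027), and DESeq2 for lama4 in DR (adjusted p = 0.031).

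Over 96 tested genes of 6 lists combined (other laminins and nidogens, other matrix glycoproteins, receptors, dystroglycan glycosylation, proteases and inhibitors, heparan sulfate synthesis), the number called for region was 3 at 32 hpf, 0 at 48 hpf and 1 at 56 hpf. Of all 17360 genes tested, 198, 1 and 44 were called. At 32 hpf it was 5 with the replicate block, 6 with the block without the doubted pairs, 1 with only the groups compared and 5 in DESeq2 (2 to 4 with 1 library left out). At 48 hpf the list count was 4 with the block without the doubted pairs and 2 without those pairs and with no block (0 to 1 with 1 library left out, 1 without either library labelled replicate 5). Over all genes the first 2 settings called 781 and 90. At 56 hpf the list count was 0 with a pseudocount of 0.5, 2 with quantile scaling, 4 with the block without the doubted pairs, 2 without those pairs, 2 with only the groups compared, and 0 in edgeR and DESeq2 (0 to 2 with 1 library left out). Over all genes these settings called, in the same order, 35, 86, 820, 95, 85, 8 and 54. Since the counts of all genes shifted between settings too, the shifts are not read as particular to these lists. The cause of these shifts was not tested. lamb2 and nid1a had few reads, 55 to 149 and 8 to 194 per group, and these differed between libraries (0 to 82 for lamb2 in DR at 56 hpf). The part of counting error in their spread was not tested.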
